A study of Mus musculus with 2 samples.

Results

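Matrilins, cartilage oligomeric matrix protein (COMP), the related thrombospondins and the cartilage intermediate layer proteins are secreted proteins that join the collagen fibrils and proteoglycans of cartilage into a network. They were followed here through 9 genes, Matn1, Matn2, Matn3, Matn4, Comp, Thbs3, Thbs4, Cilp and Cilp2, out of 18193 genes on the array that had a probe set with a single gene symbol. A probe set is the group of short probes that together measure a transcript. Every probe set carrying the symbol of a member was taken, which gave 11 probe sets. Matn2 and Matn3 had 2 each and the other 7 genes had 1 each.

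Chondrocytes, which are the cells of cartilage, were grown from ribs, and their total RNA was hybridised to Affymetrix whole-genome mouse arrays. The miR-140 knockout culture (miR-140-/-) supplied 1 array and the wild-type culture supplied 1 array. Mice of both genotypes were 5 days old and had the strain label C57BL/6, CBA. The study looked for messenger RNAs that miR-140 might target. The number of mice behind each culture and the part of the locus removed are not given in the sources used here. With 1 array a group no test, standard deviation or interval was possible, so each difference describes 2 arrays, and the number of arrays limits its precision.

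Matrilins carry von Willebrand factor A domains and assemble through a coiled coil into oligomers that bind collagens, aggrecan and COMP. COMP, Thbs3 and Thbs4 form the thrombospondin subgroup that assembles into pentamers, and COMP binds collagens of types II and IX as well as matrilins. Cilp and Cilp2 encode large secreted matrix proteins, and human CILP is known to restrain TGF-beta and IGF1 signalling. In humans, mutations of COMP and MATN3 cause multiple epiphyseal dysplasia, a growth disorder of cartilage.

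The microRNA that the knockout lacks is shown by its 3p strand, with the seed (bases 2 to 8) in capitals, as listed by RefSeq for GRCm38.p6 at chr8:107551288-107551308 on the plus strand. The array has no probe set for it.
mmu-miR-140-3p: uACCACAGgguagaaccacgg

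Promoter sequences from the RefSeq table of the same build matched 7 of the 9 members, all but Comp and Matn2. The 250 bases before the outermost transcript start are printed for Matn3 and Matn4, whose signals were lower by nearly the same amount, and for Thbs3, whose signals were close to each other. Capitals mark GGGCGG (a GC box) or a SOX-type motif, which was searched in 4 spellings, as ACAAAG, with a T in the fifth place as ACAATG, with a leading T as TCAAAG and with both as TCAATG. Both strands were searched, so a motif can appear as its reverse complement.
Matn3 promoter, chr12:8947679-8947928, + strand: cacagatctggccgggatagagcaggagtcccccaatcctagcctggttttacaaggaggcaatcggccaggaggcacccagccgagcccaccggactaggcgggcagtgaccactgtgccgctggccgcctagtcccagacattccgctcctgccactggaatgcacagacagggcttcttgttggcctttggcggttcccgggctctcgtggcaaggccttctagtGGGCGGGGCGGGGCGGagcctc
Matn4 promoter, chr2:164405161-164405410, - strand: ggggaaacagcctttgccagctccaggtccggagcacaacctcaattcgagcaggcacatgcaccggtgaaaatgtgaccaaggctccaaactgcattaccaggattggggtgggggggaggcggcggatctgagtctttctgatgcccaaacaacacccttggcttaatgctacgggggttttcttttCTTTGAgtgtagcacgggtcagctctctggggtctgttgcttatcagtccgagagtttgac
Thbs3 promoter, chr3:89214930-89215179, + strand: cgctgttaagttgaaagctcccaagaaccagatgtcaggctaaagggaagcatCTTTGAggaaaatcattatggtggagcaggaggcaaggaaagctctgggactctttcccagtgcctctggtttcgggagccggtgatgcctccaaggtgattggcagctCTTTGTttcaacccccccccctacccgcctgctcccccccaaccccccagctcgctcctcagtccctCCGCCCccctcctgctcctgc

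The Matn3 promoter held 3 GC boxes, which overlap each other and begin 22, 17 and 12 bases before the start. No SOX-type match was found in that window. The Matn4 promoter held no GC box and 1 SOX-type match, at 61 bases before the start. The Thbs3 promoter held 1 GC box at 21 bases and SOX-type matches at 88 and 197 bases. Across all 32851 promoters of the table, 32.7% held a GC box in the same 250 bases and 39.4% held at least 1 of the SOX-type spellings. Of the 7 member promoters, read at the outermost start, 5 held a GC box (Matn1, Matn3, Thbs3, Thbs4 and Cilp2) and 2 held a SOX-type spelling. The shares over all promoters include inner starts, so the sets are not alike. G and C made up 54.4% to 70.8% of the 7 member windows, beside a median of 52.4% over all promoters. The part of this content in the count of GC boxes was not tested. The TATA box letters TATAAA were found in 0 of the 7 and in 12.4% of all promoters. Only this exact spelling was searched, so 0 of the 7 does not mean that these promoters lack a TATA box. The table holds a second Matn4 promoter, at an inner start (chr2:164404819-164405068, minus strand), with 1 GC box at 6 bases before that start and no SOX-type match. Matn3 and Matn4 thus shared none of these motifs in the printed windows, but the GC box was common to Matn3 and the inner Matn4 promoter.

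Of the 9 members, Comp, Matn3 and Matn4 had at least 2-fold lower signal in the knockout array, Matn2 had 1.93-fold higher signal, and Thbs3 and Cilp2 were nearly level. Matn1, Thbs4 and Cilp did not reach a log2 signal of 7 in either array. Signals under this floor are close to background, and differences there carry little information. The 6 members above the floor had a median difference of -0.75 (knockout minus wild type, log2), beside -0.05 over all 9897 genes above it. At least 2-fold lower signal was found for 3 of the 6, where the share over all genes above the floor was 1.22%. At least 2-fold higher signal was found for 0 of the 6, where the share over all genes was 0.475%. At 1.5-fold the higher count was 1 of 6, Matn2, beside 1.56% of all genes, and the lower count stayed at 3 of 6, beside 3.56%.

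**Figure D1:**
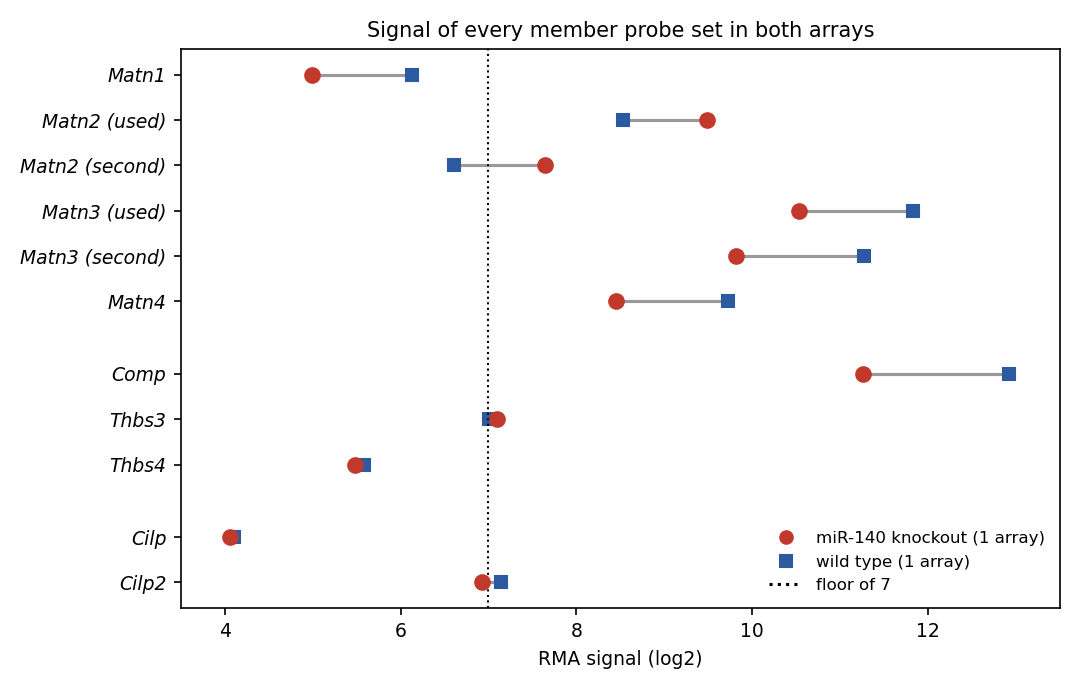
RMA signal (log2) of the 11 probe sets of the 9 members, one row each, with a red circle for the knockout array and a blue square for the wild-type array; the dotted line is the floor of 7, and for genes with several probe sets the one used for the gene is named. The circles of Matn3, Matn4 and Comp lie to the left of their squares, both Matn2 rows run the other way, and the Thbs3, Thbs4, Cilp and Cilp2 pairs nearly coincide.

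The same arrays differed in other ways, given here once. The 7 chondrocyte markers (Sox9, Col2a1, Acan, Hapln1, Cnmd, Snorc, Ucma) all reached the floor in both arrays. Of these markers, 7 of 7 were at least 2-fold lower in the knockout array, beside 1.22% of all genes. Their summed linear signal was 7312 in the knockout array and 38398 in the wild-type array. Of the fibroblast and perichondrium markers, 8 of 10 genes above the floor had higher signal, where 39.98% of all genes did, and past 2-fold 1 was higher and 1 lower. All 11 markers of this list, with Thy1 under the floor, had a summed linear signal of 35528 in the knockout array and 29125 in the wild-type array. The median difference of the 10 was 0.21, with Col3a1 at 1.38 and Lum at 0.96 but Postn at -1.26. The median difference was 0.14 for skeletal muscle markers (1 of 6 genes above the floor), -0.06 for endothelial markers (1 of 5), 0.00 for leukocyte markers (4 of 6) and -0.31 for tendon markers (2 of 4), and 0 of the 4 measured osteoblast markers reached the floor. Xist, which coats the inactive X, read 10.60 in the knockout array and 7.01 in the wild-type array. The Y-linked gene Eif2s3y read 4.18 in the knockout array and 8.86 in the wild-type array. Wwp2, the host gene of Mir140, read 7.13 in the knockout array and 9.65 in the wild-type array. With 1 array a group, genotype, sex and cell makeup cannot be told apart, nor can fewer cells of a type from less RNA per cell.

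Matn3 encodes matrilin-3, a matrilin made almost exclusively by skeletal cartilage. Its probe set of highest signal read 10.53 in the knockout array and 11.83 in the wild-type array, a difference of -1.30 or 2.47-fold lower. The second probe set read 9.82 in the knockout array and 11.28 in the wild-type array, a difference of -1.45. Both measures of this gene thus had their lower value in the knockout culture, and their differences lay 0.15 apart. For scale, among 2451 genes with exactly 2 probe sets above the floor the median gap was 0.18 and the 90th percentile was 0.52. That gap describes probes on the same 2 arrays and is no measure of the spread between cultures.

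Matn4 encodes matrilin-4, which is found in cartilage and in other connective tissues. Its only probe set read 8.45 in the knockout array and 9.72 in the wild-type array, a difference of -1.27 or 2.42-fold lower. On the probe sets used, the differences of Matn3 and Matn4 lay 0.03 apart, less than the median gap between probe sets of a gene. They ranked 78 and 81 from the lowest of the 9897 genes compared. The second Matn3 probe set, at -1.45, lay further from Matn4. Neither gene's signal came near the floor in either array.

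Matn2 encodes matrilin-2, a matrilin of broader distribution that is also made by fibroblasts. The probe set of higher signal read 9.49 in the knockout array and 8.53 in the wild-type array, a difference of 0.95 or 1.93-fold higher. The second probe set read 7.64 in the knockout array and 6.60 in the wild-type array, a difference of 1.04. Its wild-type value lies under the floor, and the 2 differences lay 0.09 apart. Matn2 ranked 53 from the highest of the genes compared, so it stood at the opposite edge of the distribution from its paralogues. The difference of Matn2 exceeded that of Matn3 by 2.26 and that of Matn4 by 2.23 on the log2 scale, so the ratio of Matn2 to Matn3 signal was 4.78-fold higher in the knockout array. The part of the higher fibroblast marker signal in this value was not tested.

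Matn1 encodes matrilin-1, the first matrilin found in cartilage and typical of the non-articular zones of growing cartilage. It read 4.99 in the knockout array and 6.12 in the wild-type array. The difference of -1.13 had the same direction and about the same size as those of Matn3 and Matn4, but both values lie under the floor. Of the matrilins, Matn2 alone had higher signal in the knockout array on every probe set, and Matn1, Matn3 and Matn4 had lower signal on every probe set.

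Comp, the thrombospondin that is most typical of cartilage and tendon, had the largest difference of the 9 members. Its single probe set read 11.26 in the knockout array and 12.93 in the wild-type array, a difference of -1.67 or 3.18-fold lower. It ranked 43 from the lowest of the 9897 genes, so that 0.434% of genes had a difference as low or lower. Both values are far above the floor. The difference of Comp minus that of Matn3 was -0.37 on the Matn3 probe set of highest signal. In size this lies between the median (0.18) and the 90th percentile (0.52) of gaps between 2 probe sets of a gene. The second Matn3 probe set, at -1.45, lay nearer to Comp.

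Thbs3 and Thbs4, the other thrombospondins that form pentamers, did not share this. Thbs3, which is expressed in developing bone and cartilage, read 7.10 in the knockout array and 7.003 in the wild-type array, a difference of 0.10. Thbs4, best known from tendon, muscle and the nervous system, read 5.48 in the knockout array and 5.58 in the wild-type array. The Thbs3 values lie just at the floor and those of Thbs4 under it, so differences in these genes could be read less well than in Comp. The difference of Comp minus that of Thbs3 was -1.77 on the log2 scale. The thrombospondins that form trimers were listed beside them. Thbs1, an activator of latent TGF-beta, read 12.14 in the knockout array and 12.69 in the wild-type array (-0.54), and its other probe set differed by -0.12. Thbs2, a matricellular protein of fibrous connective tissue, read 11.01 in the knockout array and 10.39 in the wild-type array (0.61), and all 3 of its probe sets lay between 0.61 and 0.73. Neither reached 2-fold, and the sign differed between this pair of paralogues, as it did among the matrilins.

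Cilp, named for the intermediate layer of articular cartilage, read 4.06 in the knockout array and 4.11 in the wild-type array. The gene was not measured above the floor in this culture of rib cells. Its paralogue Cilp2 read 6.93 in the knockout array and 7.15 in the wild-type array, a difference of -0.22, and reached the floor only through the wild-type value. Cilp2 lay within the bulk of genes, since 20.6% of all genes compared had a difference as low or lower, and Cilp has no rank among them.

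**Figure D2:**
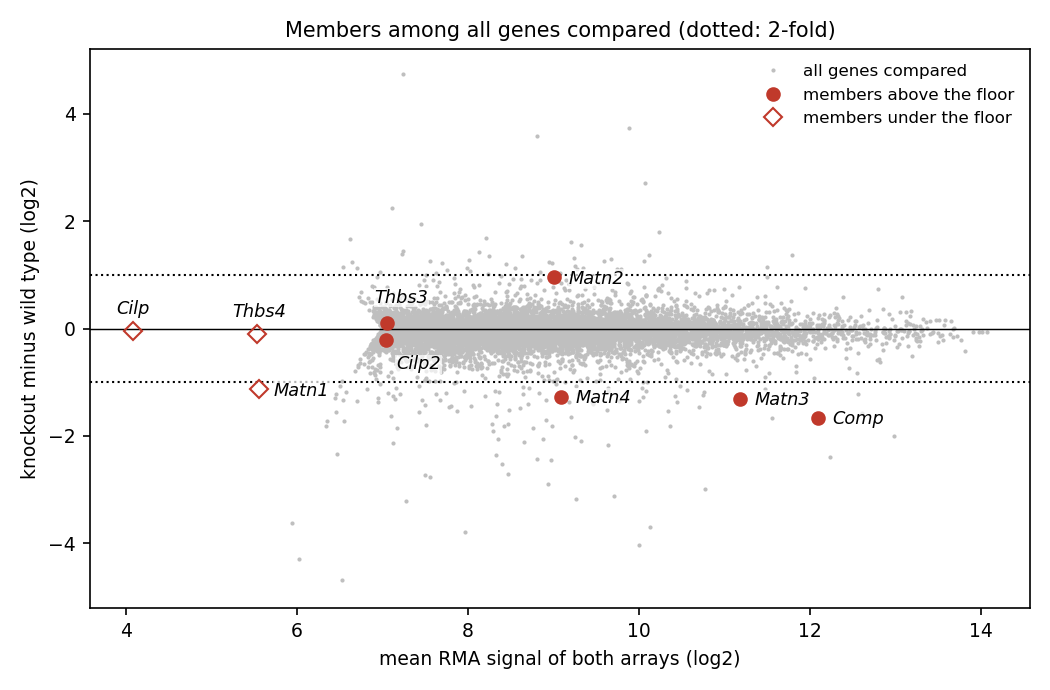
Difference between the knockout and the wild-type array (log2, vertical) against mean RMA signal of both arrays (log2, horizontal) for the 9897 genes above the floor (grey dots), with the 6 members above the floor as filled circles and the 3 under it as open diamonds; dotted lines mark 2-fold. Comp, Matn3 and Matn4 lie below the lower line and Matn2 just under the upper one, while Thbs3 and Cilp2 lie inside the cloud at low signal.

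The proteins that these adaptors bind had mostly lower signal as well. In a list of 15 fibril and proteoglycan partners, 14 were above the floor, with a median of -1.40, beside -0.05 for all genes. Of the 14, 9 were at least 2-fold lower and 0 at least 2-fold higher, beside 1.22% and 0.475% of all genes. Lower signal was found for 12, where 59.2% of all genes had it, and higher signal for 2, Lum (0.96) and Bgn (0.06). Col2a1, Acan and Hapln1 are also among the chondrocyte markers given above, and Lum and Dcn among the fibroblast and perichondrium markers. Acan, the core protein of aggrecan, had the largest difference at -4.03 (7.99 in the knockout array and 12.02 in the wild-type array). The type IX collagen chains Col9a2 and Col9a3, whose protein anchors COMP and matrilin-3 to the fibril, stood at -3.80 and -2.99, and the link protein gene Hapln1 at -2.45. Col9a2 read 6.06 in the knockout array, under the floor, and 9.86 in the wild-type array. The differences of the adaptors were smaller than these, but the partners just named are the 4 with the largest differences of the list. Against the list median of -1.40, Comp (-1.67) lay lower, and Matn3 (-1.30) and Matn4 (-1.27) lay slightly higher. The difference of Comp exceeded that of Acan by 2.36 on the log2 scale, and that of Matn3 exceeded it by 2.72, so relative to Acan both adaptor transcripts were higher in the knockout array. The difference of Comp minus that of Col9a1 was -0.09, and that of Matn3 minus that of Col9a1 was 0.27. Against Col2a1, the type II collagen gene, the difference of Comp was higher by 0.33.

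**Figure D3:**
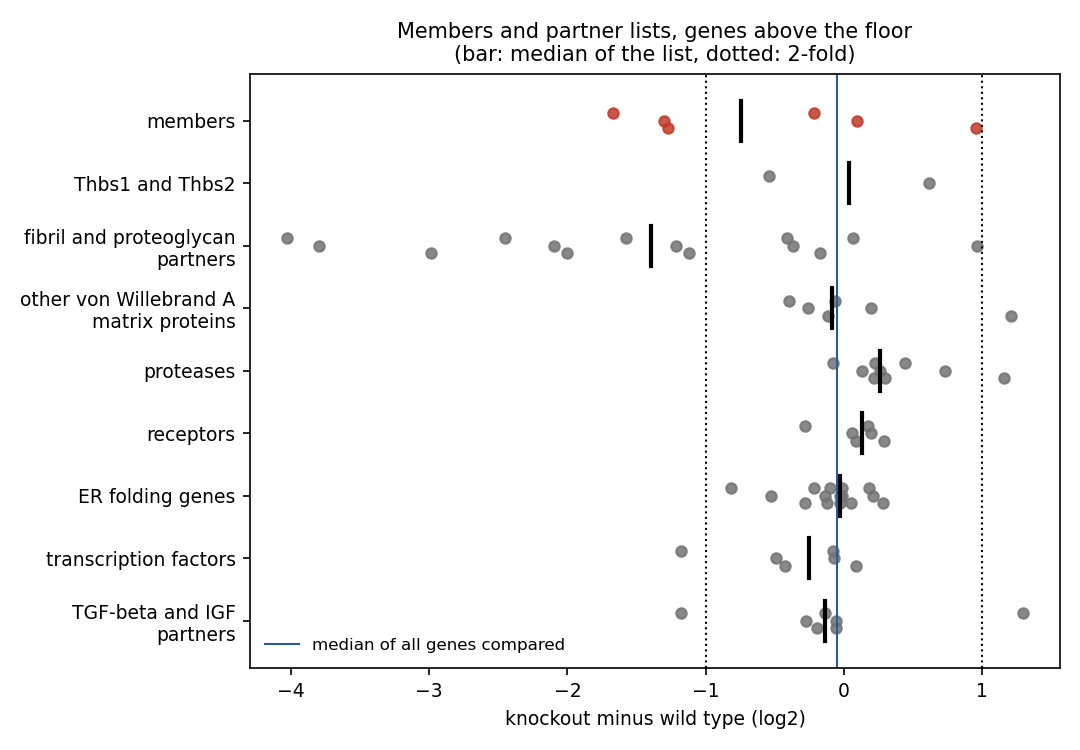
Difference between the knockout and the wild-type array (log2) for each gene above the floor in the member list (red, top row) and in the 8 partner lists (grey); black bars are list medians, the blue line is the median of all genes compared (-0.05) and dotted lines mark 2-fold. Members are spread between -1.67 and 0.95, fibril and proteoglycan partners reach -4.03, and the other lists lie mostly between the dotted lines.

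Other matrix proteins built with von Willebrand A domains did not follow the lower matrilins. Of 6 above the floor, 0 were at least 2-fold lower and 1 at least 2-fold higher, beside 1.22% and 0.475% of all genes. Their median was -0.09. The 1 gene was Col14a1, a fibril-associated collagen of fibrous tissue, at 1.21 (9.05 in the knockout array and 7.84 in the wild-type array). Col12a1, a related collagen of the perichondrium, stood at 0.20, Col6a1 of the pericellular matrix at -0.40 and Col7a1 at -0.26. The other Col12a1 probe set above the floor differed by 0.59.

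Proteases that can act on these proteins or on neighbouring matrix had a median difference of 0.26, beside -0.05 for all genes. Of 9 above the floor, 8 had higher signal, where 39.98% of all genes did. Past 2-fold, 1 was higher, Mmp3 (stromelysin), and 0 were lower, beside 0.475% and 1.22% of all genes. Mmp3 read 12.07 in the knockout array and 10.92 in the wild-type array. Mmp13, a collagenase, stood at 0.73, the gelatinase Mmp2 at 0.44 and the aggrecanase Adamts5 at 0.30. Adamts7 and Adamts12, which are known to cleave COMP, did not reach the floor. The receptors listed had no member past 2-fold among 6 above the floor, near the 0.475% higher and 1.22% lower of all genes. Their median was 0.13. Itgb1, the common integrin beta chain, stood at 0.29, Itga1 at -0.28, Cd47 at 0.19 and Lrp1 at 0.17. Probe sets of Cd47 above the floor ranged from -0.04 to 0.32.

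Chaperones of the endoplasmic reticulum, which meet mutant matrilin-3 and COMP in the inherited dysplasias, were close to level. The median of the 15 above the floor was -0.03. Of these, 0 were at least 2-fold lower and 0 at least 2-fold higher, near the 1.22% and 0.475% of all genes. Ddit3, a stress-induced transcription factor, stood at -0.82, the disulphide isomerase Pdia4 at -0.53, P4hb at -0.28 and Manf at 0.28. A further probe set of Ddit3 differed by -0.12. Of the chondrocyte transcription factors, 6 were above the floor with a median of -0.25, and 1 was at least 2-fold lower, beside 1.22% of all genes. That gene was Sox9, which is known to drive the Matn1 promoter together with its partners, at -1.18 (7.78 in the knockout array and 8.96 in the wild-type array). Sox9 is also among the chondrocyte markers given above. Sox6 stood at -0.49, Foxc1 at -0.43 and Nfib at 0.09, with Nfib probe sets from -0.04 to 0.29.

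The growth factors and receptors that meet the cartilage intermediate layer proteins were split. Of 7 above the floor, 1 was at least 2-fold lower and 1 at least 2-fold higher, beside 1.22% and 0.475% of all genes. Their median was -0.14. Igf1, a growth factor for chondrocytes, stood at 1.29 (10.33 in the knockout array and 9.03 in the wild-type array), and its 4 probe sets lay between 0.84 and 1.39. Tgfb2 stood at -1.18 (10.17 in the knockout array and 11.35 in the wild-type array), Igf1r at -0.28 and Tgfb1 at -0.19. The 4 probe sets of Tgfb2 lay between -1.36 and -0.84, so not all of them reached 2-fold.

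Likeness of pattern could be measured only by the size of a single difference, since there are 2 arrays. The 5 genes above the floor in both arrays whose differences lay nearest to that of Comp were Tubb2a (-1.66), Slc39a8 (-1.65), Bcat1 (-1.64), Id4 (-1.70) and the type IX collagen chain Col9a1 (-1.58). Their distances from Comp were 0.01 to 0.09. Of these, Col9a1 is the fibril partner named above.

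Neither the direction nor the 2-fold call of Comp, Matn3, Matn4, Thbs3 and Cilp2 depended on the processing tried, wherever the gene passed the floor. Most settings could not move Comp or Matn4, which have a single probe set and signals above every floor tried. For Comp and Matn4 only the scaling alternatives acted, on arrays that RMA had already brought to a common distribution. Comp ranged from -1.68 to -1.59, Matn3 from -1.45 to -1.25 and Matn4 from -1.28 to -1.25. Thbs3 ranged from 0.09 to 0.10 and Cilp2 from -0.22 to -0.15. Matn2 ranged from 0.95 to 1.04 and passed 2-fold with probe sets of 1 transcript only. The probe set then used reached the floor only through the knockout array (7.64), with 6.60 in the wild-type array.

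**Figure D4:**
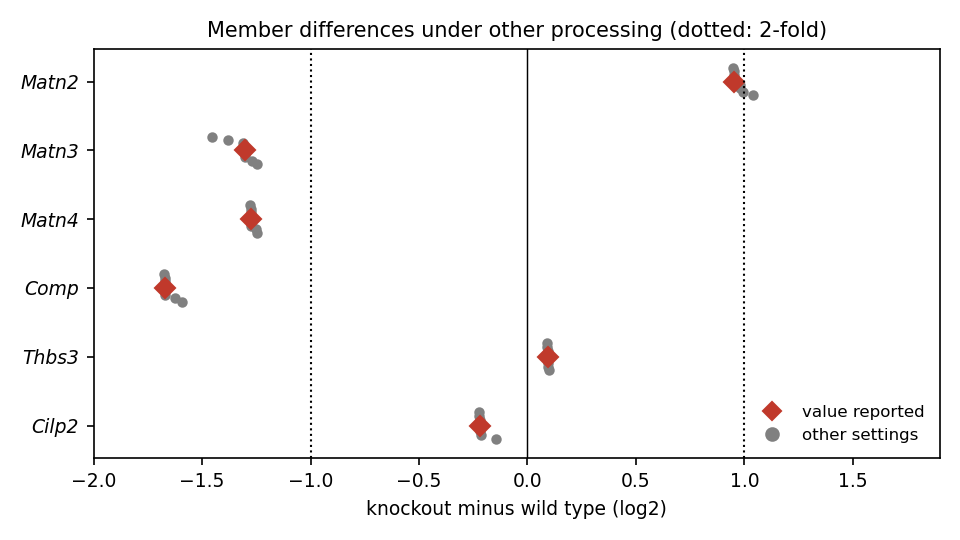
Difference between the knockout and the wild-type array (log2) for the 6 members above the floor, with the reported value as a red diamond and the values under other processing settings as grey circles; dotted lines mark 2-fold. Comp, Matn3 and Matn4 stay below the lower line in all settings plotted, and Matn2 lies around the upper line between 0.95 and 1.04. For genes with a single probe set, several settings cannot change the value.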

How the data were processed

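Messenger RNA was measured on 2 Affymetrix arrays, grouped by sample title. The deposited values are log2 signals that the authors made by RMA (Robust Multichip Average), per the design text of the labels, in Affymetrix Expression Console 1.1, per the submitters' processing notes. RMA gives the arrays a common distribution and compresses differences of dim probe sets. The log2 scale was read from the values (3.24 to 14.2). The sorted values of the arrays differ by at most 0.157, so a shift shared by most genes would not be seen.

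Of 45101 probe sets, 34945 had a single symbol in the platform annotation, 932 had several and 9160 were not listed; 64 are controls. Entrez identifiers matched 34741 of the 34945 to RefSeq genes (GRCm38.p6), and 0 changed symbol. A gene with several probe sets was represented by the one whose mean over both arrays was highest, which left 18193 genes, and 9897 genes with a log2 value of at least 7 in either array were compared. Differences are knockout minus wild type. Members and lists were chosen with earlier results of these data known. Of 128 listed symbols, 3 had no probe set of their own here. The genes named are all members, up to 4 genes of each partner list with the largest differences above the floor, the 5 genes nearest to Comp, and markers and neighbours given as checks of the arrays, which were picked after their values were seen. The values that could be given for the lists carry no test. The code that counts 2-fold differences was run on simulated data with known changes, which checks the code and says nothing of chance. Alternatives were other choices of probe set, median centring, quantile normalization, lowess centring (span 0.2), floors of 6 and 8, no floor, low values raised to 7 and a 1.5-fold threshold. Python 3.11.15, pandas 2.3.3 and statsmodels 0.14.6 were used.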

Additional observations from a re-analysis of the deposited data

How the results depend on the processing

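Of 177 values recomputed under the alternatives, 166 counted as the same, and 0 called values changed sign. A difference was the same if it kept its call and moved by at most 0.18 on the log2 scale. That is the median gap between 2 probe sets of a gene. Medians were held to that distance alone, and counts to a factor of at most 1.5. A change of floor cannot alter a gene's own difference, so part of the 166 was fixed in advance. Matn1 passed 2-fold at -1.13 with a floor of 6 and with no floor, because its signals were then admitted. With probe sets of 1 transcript only, Matn2 passed 2-fold at 1.04, on a probe set that reached the floor only through the knockout array. The count of members at least 2-fold higher was then 1, as it was with a 1.5-fold threshold. Under that threshold 352 of all genes counted as lower and 154 as higher, beside 121 and 47 at 2-fold. The member median of -0.75 was -1.13 with a floor of 6 (7 members) and -0.22 with no floor (9 members), since further members entered, and -1.29 with a floor of 8 (4 members), since Thbs3 and Cilp2 dropped out. The median of the transcription factors was -0.46 with a floor of 8 (4 genes). The count of members at least 2-fold lower was 3 in the other settings and 4 with a floor of 6 or none. The scaling alternatives moved the median of all genes by at most 0.02. No paired analysis was possible because each group has 1 array, and for the same reason no array could be left out. Signals under the floor limit what can be said of Matn1, Thbs4 and Cilp.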

Other observations

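Genes next to the members on the chromosome were read from the order of protein-coding genes in RefSeq, after the member values were seen. Of 18 neighbours, 1 on each side of every member, 16 had a value and 2, Rpl30 and Yjefn3, had no probe set named here. The 9 above the floor had a median difference of -0.09. At least 2-fold lower signal was found for 1 of the 9, beside 1.22% of all genes, and at least 2-fold higher signal for 0, beside 0.475%. The neighbours of Comp, Matn3 and Matn4 did not come near the differences of those genes. Crtc1, next to Comp, read 7.56 in the knockout array and 7.76 in the wild-type array (-0.20), and Upf1 on the other side lay under the floor. Laptm4a and Wdr35, which flank Matn3, stood at -0.09 and -0.01. Slpi, a secreted protease inhibitor next to Matn4, stood at -0.56 (11.72 in the knockout array and 12.28 in the wild-type array). Mtx1, which lies beside Thbs3, stood at -0.03.

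The exception was Serinc5, a membrane protein gene next to Thbs4, which read 6.62 in the knockout array and 8.41 in the wild-type array, a difference of -1.80. Its knockout signal lies under the floor. Thbs4 itself was under the floor in both arrays, and Mtx3 on its other side stood at -0.41. Comp and Cilp2 lie on the same chromosome as Wwp2, with differences of -1.67 for Comp, -0.22 for Cilp2 and -2.52 for Wwp2.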
